A study of Mus musculus with 2 samples.

Results

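The 9 genes described here are Thy1 and a group of genes of naive, circulating or helper T cells, namely Ccr7, S1pr1, Klf2, Tcf7, Lef1, Cd4, Foxp3 and Satb1. They were found as every non-control probe present on both arrays whose transcript accession belongs to 1 of these genes, which gave 11 probes, 1 probe for 7 genes and 2 probes for Tcf7 and Cd4. They make up 9 of the 20887 named genes on the arrays, and all 9 are among the 13513 genes for which a difference between the arrays could be given. The genes were chosen from the values of this same comparison, so their differences are a description and carry no test.

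RNA came from small intestinal intraepithelial lymphocytes (IELs) of C57BL/6 mice aged 8–12 wk, depleted of CD4+ and TCRγδ+ cells and sorted as TCRαβ+CD8αα+ T cells, and pools of males and females were hybridized to 1-color Agilent mouse arrays. Control mice are given in the labels as Rbpjf/f without a Cre, while the study describes its control animals as carrying CD4-Cre with wild-type Rbpj, and RFF4 mice carry CD4-Cre with both Rbpj alleles floxed, so that the deletion begins when Cd4 is first expressed in the thymus and also covers conventional CD4+ and CD8+ T cells. There was 1 array of 1 RNA pool per genotype, both on the same slide and scan, which limits the precision and leaves no test, standard error over animals or p-value. In such bulk RNA, more cells that express a gene and more RNA per cell cannot be told apart.

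TCRαβ+CD8αα+ IELs, also called natural IELs, arise from thymic precursors and mature in the gut epithelium, where they lie between epithelial cells. Thy1 encodes CD90, a glycoprotein held on the surface of T cells by a lipid (GPI) anchor, and it is lost as these IELs mature. Conventional naive T cells recirculate through lymph nodes under a program in which CCR7 guides entry and S1PR1 guides exit, KLF2 turns on homing receptor genes, and TCF-1 (Tcf7), LEF1 and SATB1 maintain the T cell gene program. CD4 and FOXP3 mark helper and regulatory T cells, which the sort was set up to leave out. The study also stained CD90 protein on these cells by flow cytometry, and those measurements are not part of the array data.

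Promoter sequence of RefSeq (GRCm38.p6) was at hand for 5 of the 9 genes, Klf2, Tcf7, Lef1, Satb1 and Foxp3, with 14 listed transcription starts. The 250 bases before the only listed start of Klf2 (chr8:72318812-72319061, plus strand) are shown because Klf2 differed most among these transcription factors. The 250 bases before 1 of the 4 listed starts of Lef1 (chr3:131156044-131156293, plus strand) are shown because they hold the only TCF/LEF motif found before a start of these genes, which stands there at 2 places, 180 and 120 bases before the start, in capitals.
Klf2: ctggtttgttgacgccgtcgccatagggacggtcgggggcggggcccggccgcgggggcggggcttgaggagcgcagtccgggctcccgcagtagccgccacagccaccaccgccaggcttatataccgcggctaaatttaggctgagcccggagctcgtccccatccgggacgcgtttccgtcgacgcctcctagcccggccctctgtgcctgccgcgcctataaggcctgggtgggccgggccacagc
Lef1: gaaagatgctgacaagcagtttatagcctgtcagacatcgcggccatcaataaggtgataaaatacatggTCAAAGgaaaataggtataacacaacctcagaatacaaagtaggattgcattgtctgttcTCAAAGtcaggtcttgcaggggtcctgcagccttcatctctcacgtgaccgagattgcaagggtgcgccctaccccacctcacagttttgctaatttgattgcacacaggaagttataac
Both strands were searched. The letters of RBPJ were TGGGAA. For TCF/LEF factors the motif was CTTTGA, and its reverse complement is what the capitals show. Those of FOXO factors were GTAAACA, and no letters were shared between motif matches. Of all 32851 listed promoters, 21.6% hold the RBPJ letters in this window, 13.8% the TCF/LEF letters and 3.17% the FOXO letters. Of the 14 starts, 1 of the 5 of Satb1 had the RBPJ letters, 1 of the 4 of Lef1 had the TCF/LEF letters, and 0 had the FOXO letters. A match of letters is a description of the sequence only.

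Signals are background-subtracted and given as log2 values relative to each array's 75th percentile over gene spots, and differences are RFF4 minus Control. Of the spots for gene probes, 57.2% were well above background on the Control array and 49.7% on the array labelled RFF4, with 0 saturated spots on both. Rbpj, the floxed gene, was not lower on the array labelled RFF4 after this scaling. Its brightest probe read 1.96 on the Control array and 2.28 on the other, a difference of 0.32, and a second probe differed by 0.82. Before scaling, however, its signals were lower on the array labelled RFF4, 1979 against 1101 for the brightest probe and 188 against 148 for the other, and under spike-in scaling the difference was -0.80. Over all gene spots the 75th percentile was lower as well, 7.82 against 8.99 on the Control array. The median difference of all genes under spike-in scaling was -1.10. Where the Rbpj probes lie relative to the deleted exons was not examined, so they do not check the deletion, and the array is called the array labelled RFF4. The Notch target genes Heyl and Dtx1 were lower on it, with differences of -3.80 (-2.92 with normexp background correction) and -3.63.

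All 9 genes were higher on the array labelled RFF4, as were 48.9% of all genes, and 0 of 9 were lower, as were 51.1% of all genes. They differed by a median of 0.98, where the median of all 13513 genes was -0.015. Thy1, Ccr7, Klf2 and Foxp3 (4 of 9) were more than 2-fold higher, as were 12.3% of all genes, and 0 of 9 were more than 2-fold lower, as were 5.05% of all genes. Thy1 alone was more than 4-fold higher, as were 1.85% of all genes, and 0 of 9 were more than 4-fold lower, as were 0.585% of all genes. With normexp 3 of the 9 were more than 2-fold higher, without Foxp3, as were 9.22% of all genes in that setting. Nearest to the 2-fold line lay Foxp3 just inside at 2.30-fold and S1pr1 just outside at 1.97-fold. These directions rest on the scaling, because the scanner signals before scaling were higher on the array labelled RFF4 for 4 of the genes (Thy1, Ccr7, Klf2 and Foxp3) and lower for the other 5. With 8 spike-in controls set equal in place of the 75th percentile, every difference fell by 1.12 on the log2 scale. In that setting 4 of the 9 genes were higher and 5 lower, 1 was more than 2-fold higher, as were 1.39% of all genes then, and all 9 still lay above the median of all genes.

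**Figure D1:**
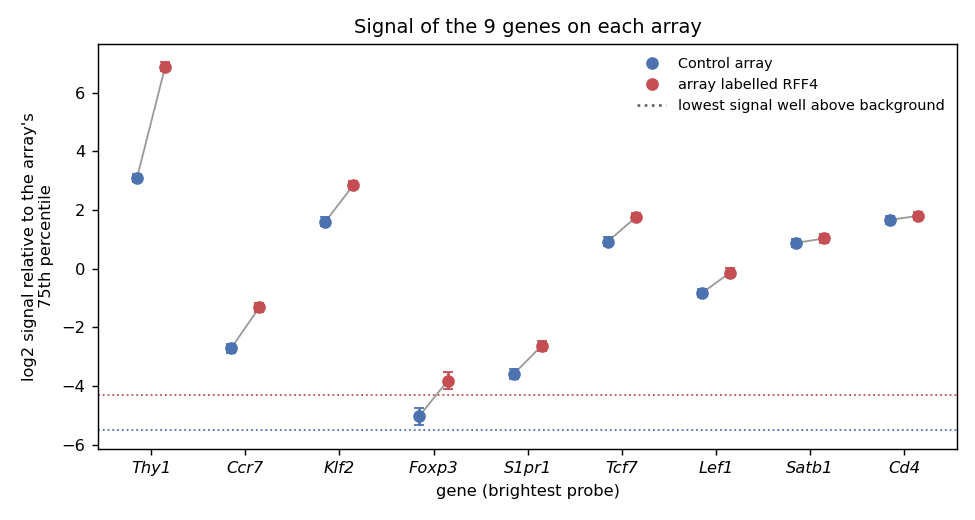
Signal of the 9 genes on the Control array (blue) and the array labelled RFF4 (red), as log2 relative to the array's 75th percentile, with bars for the scanner software's error of a spot and dotted lines at the lowest signal well above background on each array. Thy1 moved from 3.09 to 6.89, Cd4 and Satb1 lay almost level, and Foxp3 was close to the dotted lines on both arrays.

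Thy1 stood apart from the other genes. Its single probe read 3.09 on the Control array and 6.89 on the array labelled RFF4, a difference of 3.80 or 13.9-fold. Before scaling, the scanner signal was 4338 on the Control array and 26848 on the other, so that the signal itself was 6.19 times higher. Thus Thy1 was higher on the array labelled RFF4 with and without scaling, and its signal lay far above background on both arrays. The scanner software gives an error of 0.20 for this difference. From the spot-to-spot SDs of probes of similar brightness printed on several spots, the SD of such a difference was 0.06. Both cover technical error within these arrays and not the spread between mice. Thy1 took rank 15 from the top among 13513 genes and rank 5 among the 12955 genes that were well above background on both arrays. Among the 1412 genes whose mean signal lay within 1 log2 unit of that of Thy1, 0 had a larger difference, and their median was 0.02. Across settings the difference lay between 3.55 and 3.80, and it was 2.67 with the spike-in controls set equal.

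The genes whose differences lay nearest to that of Thy1, among those measured above background on each array, were S100a4, Tbc1d16, Cx3cr1, Clu and Amy1. S100a4, which encodes a calcium-binding protein, read -3.76 on the Control array and 0.14 on the array labelled RFF4, a difference of 3.90, and its second probe gave 5.15. Tbc1d16, a regulator of Rab GTPases, differed by 3.96 and Cx3cr1, the receptor for fractalkine, by 3.57. Clu, which encodes clusterin, differed by 4.14, and the amylase gene Amy1 by 3.38. The likeness is the size of 1 difference between 2 arrays and depends on the background correction, since with normexp these genes differed by 2.99, 2.05, 1.95, 3.08 and 2.19 in the order above, and Thy1 by 3.55. The lowest of the 3 probes of Cx3cr1 gave a difference of 1.89.

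**Figure D2:**
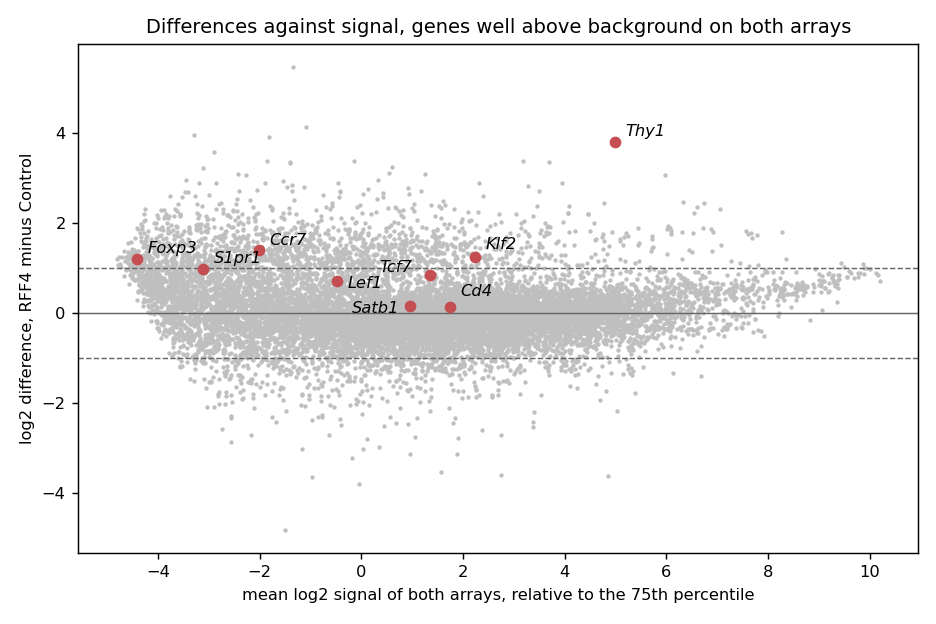
Log2 difference (RFF4 minus Control) against the mean log2 signal of both arrays for the 12955 genes well above background on both (grey) and the 9 genes (red), with dashed lines at 2-fold. Thy1 lay above all grey points of similar signal, whereas Foxp3 lay at the dim end, where the grey points as a whole sit above 0.

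The homing receptors Ccr7 and S1pr1 gave dim signals on both arrays. Ccr7, whose product binds the lymph node chemokines CCL19 and CCL21, read -2.71 on the Control array and -1.32 on the array labelled RFF4, a difference of 1.39 or 2.63-fold. Its scanner signals before scaling were 77.9 and 91.0. The scanner software's error for the difference was 0.21, and its SD from the spot-to-spot SDs at this brightness was 0.15. The 2250 genes of similar signal had a median of 0.11. S1pr1, the sphingosine 1-phosphate (S1P) receptor that T cells need to leave the thymus and lymph nodes, read -3.59 and -2.62, a difference of 0.98 or 1.97-fold. S1pr1 was lower before scaling, with scanner signals of 42.2 on the Control array and 36.9 on the array labelled RFF4. The errors of its difference were 0.24 by the scanner software and 0.27 from the spot-to-spot SDs, and genes of similar signal had a median of 0.31. Both receptors were therefore higher after 75th percentile scaling by more than the technical error, but with the spike-in controls set equal Ccr7 differed by 0.27 and S1pr1 by -0.15.

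Among the transcription factors of this program, Klf2 differed most. Klf2, an activator of S1pr1, read 1.61 on the Control array and 2.86 on the array labelled RFF4, a difference of 1.25 or 2.38-fold. Its scanner signals before scaling were 1550 and 1639, nearly level. Of 3275 genes with similar signal, 134 had a larger difference. Both probes of Tcf7, which encodes TCF-1, were higher on the array labelled RFF4 and differed alike. The brighter probe read 0.92 and 1.76, a difference of 0.84 or 1.78-fold, and the dimmer probe read -1.87 and -1.01, a difference of 0.86. Lef1, which encodes the related factor LEF1, read -0.83 and -0.13, a difference of 0.70 or 1.63-fold. Neither Tcf7 nor Lef1 passed 2-fold, and both were lower with the spike-in controls set equal, by -0.29 and -0.42, where Klf2 was higher by 0.13.

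Satb1, which encodes an organizer of chromatin in thymocytes and T cells, did not follow Klf2 and Tcf7. It read 0.88 on the Control array and 1.03 on the array labelled RFF4, a difference of 0.15 or 1.11-fold, within the error of 0.20 that the scanner software gives. Across settings other than the spike-in controls, Satb1 lay between -0.02 and 0.27, so its direction was not settled.

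Cd4 and Foxp3, genes of cells removed by the sort, gave differences that were small, split between probes or close to background. The brighter probe of Cd4, the coreceptor of helper T cells, read 1.67 on the Control array and 1.80 on the array labelled RFF4, a difference of 0.13 or 1.10-fold. The second Cd4 probe is printed on 10 spots of each array. On the Control array all 10 spots were well above background, with a mean of -3.88 ± 0.28 (SD over 10 spots) and a range of -4.26 to -3.41. On the array labelled RFF4 0 of 10 spots were well above background, with a mean of -5.20 ± 0.73 and a range of -6.57 to -4.46. These spots all lay under the lowest signal well above background on that array (-4.29), so they give only a bound. Set against that signal the probe was at least 1.33-fold lower on the array labelled RFF4, while the brighter probe was close to level. Averaging both probes gave -0.59, a value that uses this probe's level on the array labelled RFF4 without the bound.

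Foxp3, the lineage factor of regulatory T cells, read -5.02 on the Control array and -3.81 on the array labelled RFF4, a difference of 1.20 or 2.30-fold. Both values lay close to the lowest signal well above background, 0.49 above it on the Control array and 0.48 on the other. The scanner signals were 15.7 and 16.1, almost equal. The error of its difference was 0.41 by the scanner software and 0.44 from the spot-to-spot SDs, and 831 genes of similarly dim signal had a median of 0.66. Of these, 173 had a larger difference than Foxp3. Its 2-fold call was lost with normexp (0.90) and under spike-in scaling (0.079).

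**Figure D3:**
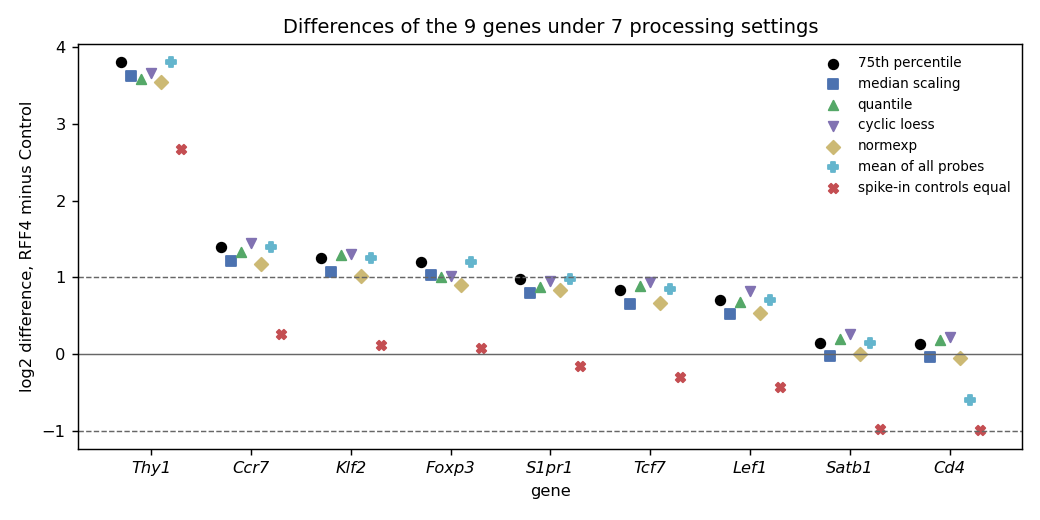
Log2 difference of the 9 genes under 7 ways of processing, with dashed lines at 2-fold. Thy1 lay between 2.67 and 3.80 in all of them, the spike-in controls moved S1pr1, Tcf7, Lef1, Satb1 and Cd4 below 0, and averaging both probes moved Cd4 to -0.59.

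Other genes of naive or circulating T cells were read from a list of 15, of which 13 gave a difference. In this list 8 genes were higher and 5 lower, and the median was 0.16. More than 2-fold higher were 5 of the 13, as were 12.3% of all genes. More than 2-fold lower was 1, as were 5.05% of all genes. Il7r, the receptor of the survival cytokine IL-7, read -2.29 on the Control array and -0.38 on the array labelled RFF4, a difference of 1.91. Treml2 differed by 2.16, Igfbp4 by 1.40 and the costimulatory receptor gene Cd28 by 1.26. Treml2 is dim, and normexp background correction reduced it to 1.55. Other genes of the same list were lower, among them Rasgrp2, an exchange factor for Rap GTPases, which read 2.21 and 0.52, a difference of -1.70. The naive T cell list therefore held genes on both sides, and its median lay below that of the 9 genes. With normexp its median was 0.49, where that of all genes was -0.0095.

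The partners of TCF-1 and LEF1, the other Kruppel-like factors and the S1P pathway showed smaller differences. Of 12 TCF/LEF partners and related factors, 8 were higher and 4 lower, with a median of 0.22. Tcf7l2, another TCF family member, was the single gene past 2-fold, with 1.49 by its brightest probe and 2.80 by another. Axin2, a target gene of β-catenin, differed by -0.87, but its second probe gave 0.11. Id3, an inhibitor of E proteins, differed by 0.77 and Bcl11b, a factor of T cell commitment, by 0.24, with a second probe at -0.17. Of 6 other Kruppel-like factors with a difference, 0 passed 2-fold, 3 were higher and 3 lower, and Klf3 differed by 0.87 and Klf6 by 0.28, the latter by -0.22 with quantile normalization. In the S1P pathway 9 of 10 genes gave a difference, 5 higher and 4 lower, with a median of 0.16 whose direction turned under 6 of the 9 alternatives, for example to -0.23 with quantile normalization. Sphk1, which makes S1P, differed by 1.37 and the transporter gene Spns2 by 1.09 (0.92 with median scaling), while S1pr4, the other S1P receptor of lymphocytes, differed by 0.93. S1pr5 was not well above background on either array.

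Ligands and binding partners of the surface proteins gave 7 differences from 9 genes, with a median of 0.29. Sdc4, which encodes the Thy-1 binding proteoglycan syndecan-4, differed by 1.52, and Itgb3, the β3 chain of an integrin that binds Thy-1, by -1.47. Of 16 helper and regulatory T cell genes, 11 gave a difference, 5 higher and 6 lower, with a median of -0.0015. Tnfrsf4, which encodes the costimulatory receptor OX40, differed by -1.21 and the inhibitory receptor gene Ctla4 by -1.01, both more than 2-fold lower. Ctla4 did not pass 2-fold with normexp (-0.98), quantile normalization (-0.96) or cyclic loess (-0.89). Cxcr5, the chemokine receptor of follicular helper T cells, was at least 2.65-fold higher, as it was not well above background on the Control array. Il2ra, the α chain of the IL-2 receptor, differed by -0.87 and reached 0.26 with normexp correction. Zbtb7b, the factor of CD4 lineage choice, differed by 0.50, with other probes down to -0.39 and a mean of -0.085, and Cd40lg was not well above background on either array. Helper and regulatory T cell genes thus lay on both sides of 0.

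Thymocyte genes had the highest median of the lists of related genes set up first, 0.65 over 7 of 11 genes. Cd24a, a GPI-anchored marker of immature thymocytes, differed by 1.47. Cd8b1, the CD8β chain absent from CD8αα+ cells by the sort, was at least 1.65-fold lower, since only the Control array had it well above background. Rag1, which recombines antigen receptor genes, was not well above background on either array, and the same held for Rag2, Ptcra and Arpp21. Tissue residency and IEL maturation genes, in contrast, centered near 0, with a median of -0.14 over 15 of 17 genes, 6 higher and 9 lower. Cd69, which holds T cells in tissue, differed by 0.03 and Gzmb, which encodes granzyme B, by -0.15, while quantile normalization gave -0.051 and -0.80. In this list Cxcr6 with 1.40 and Gzma with 1.02 were past 2-fold. Ahr and Prdm1, transcription factors named here after their values were seen, lay lowest with -0.84 and -0.71. The 2-fold call of Gzma was lost with median scaling (0.85), normexp (0.83), cyclic loess (0.48) and quantile normalization (0.23), and 2 genes of the list, Itgae and Zfp683, had no matched probe.

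Other T cell surface molecules that natural IELs are known to carry at low levels were listed after their values had been seen. Itgal, the α chain of the integrin LFA-1, read -0.65 on the Control array and 1.68 on the array labelled RFF4, a difference of 2.33, and its 2 probes lay between 2.28 and 2.33. Cd2, an adhesion receptor of T cells, read 2.96 and 5.18, a difference of 2.22. Cd28 differed by 1.26, Cd6 by 0.30 and Cd5 by -0.21. So 3 of these 5 genes were more than 2-fold higher, as were 12.3% of all genes, while Cd5, a negative regulator of T cell receptor signaling, was slightly lower. With the spike-in controls set equal, Itgal differed by 1.21 and Cd2 by 1.10.

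**Figure D4:**
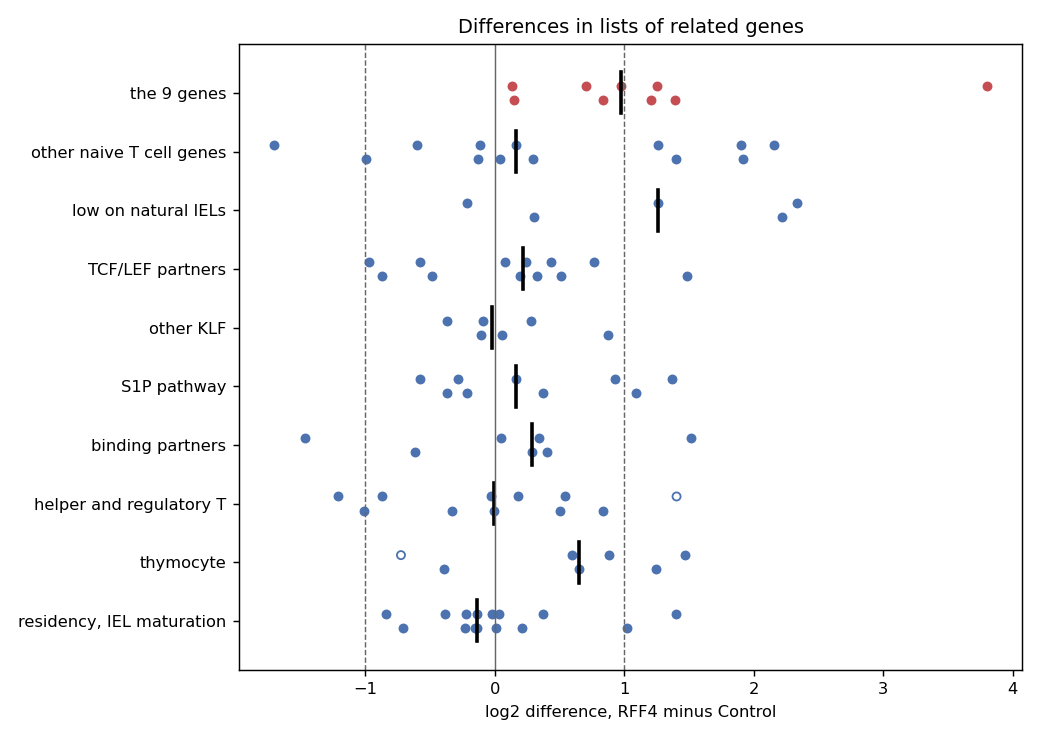
Log2 difference (RFF4 minus Control) of every gene with a value in the 9 genes (red) and in 9 lists of related genes (blue), with open circles for values that are bounds, black bars at medians and dashed lines at 2-fold. The 9 genes had a median of 0.98, the residency genes lay around 0, and the naive T cell genes spread from -1.70 to 2.16.

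Genes shared by T cells were well above background on both arrays, 12 of 12, with a median difference of 0.32 and summed linear signals of 1059 and 1341 times the 75th percentile. Cd3e, a chain of the T cell receptor complex, differed by 0.35 (-0.25 with quantile normalization), Cd8a by -0.070 and 0.17 in its 2 probes and the pan-leukocyte gene Ptprc by -0.46, so the sorted population carried the T cell transcripts of its label on both arrays. Markers of other cells were higher on the array labelled RFF4 as well. Of all genes 48.9% were higher and 12.3% more than 2-fold higher. Epithelial markers were higher for 14 of 14 genes, 12 of them more than 2-fold, with a median of 1.60 and summed signals of 213 and 664. Macrophage and dendritic cell markers were higher for all 10 genes with a difference, 8 more than 2-fold, with a median of 2.33 and summed signals of 72.5 and 138. Most of the Control sum came from Itgax (5.52 there) and Itgam (4.32), which differed by 0.20 and 0.92, neither past 2-fold. In this list Cx3cr1 is also 1 of the genes nearest to Thy1, while Flt3 and Xcr1 were not well above background on either array. B and plasma cell markers had a median of 1.35 over 6 of 9 genes and summed signals of 27.1 and 59.4. Under spike-in scaling, 10 of 14 epithelial markers were higher, 0 of them more than 2-fold, with a median of 0.48, and the macrophage and dendritic cell markers had a median of 1.20 and those of B and plasma cells 0.22, while the genes shared by T cells had a median of -0.80 with 1 of 12 higher. With normexp the medians in this order were 1.42, 1.29, 0.93 and 0.11. The part of these cells in the values of Thy1, Ccr7, Klf2 and the other genes was not tested.

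Stromal, endothelial and nerve cells can also express Thy1, and many of their markers were below background. Of 8 fibroblast markers, 4 gave a difference, with a median of 1.18 and summed signals of 0.73 and 1.79. Dcn differed by 1.86, Col3a1 by 1.47, Col1a2 by 0.89 and Col1a1 by -0.16. Lum, Pdgfra, Pdgfrb and Pdpn were not well above background on either array. Of 11 endothelial markers 8 were not well above background on either array, and the summed signals of the list were 5.53 and 12.7. Among the others, Kdr, which made up most of both sums, differed by 1.33 and Pecam1 by -1.03 (-0.47 with normexp). Of 7 enteric nerve markers 4 were not well above background on either array. Their summed signals were 16.4 and 30.2, nearly all from Snap25, which differed by 0.92. Innate lymphoid markers gave 4 differences from 8 genes with a median of 1.27 and summed signals of 10.8 and 6.58, and γδ T cell markers gave 1 from 5. Most of the innate lymphoid sum on the Control array came from Kit, the 1 of the 4 that was lower (-1.46). The part of these cells was not tested.

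**Figure D5:**
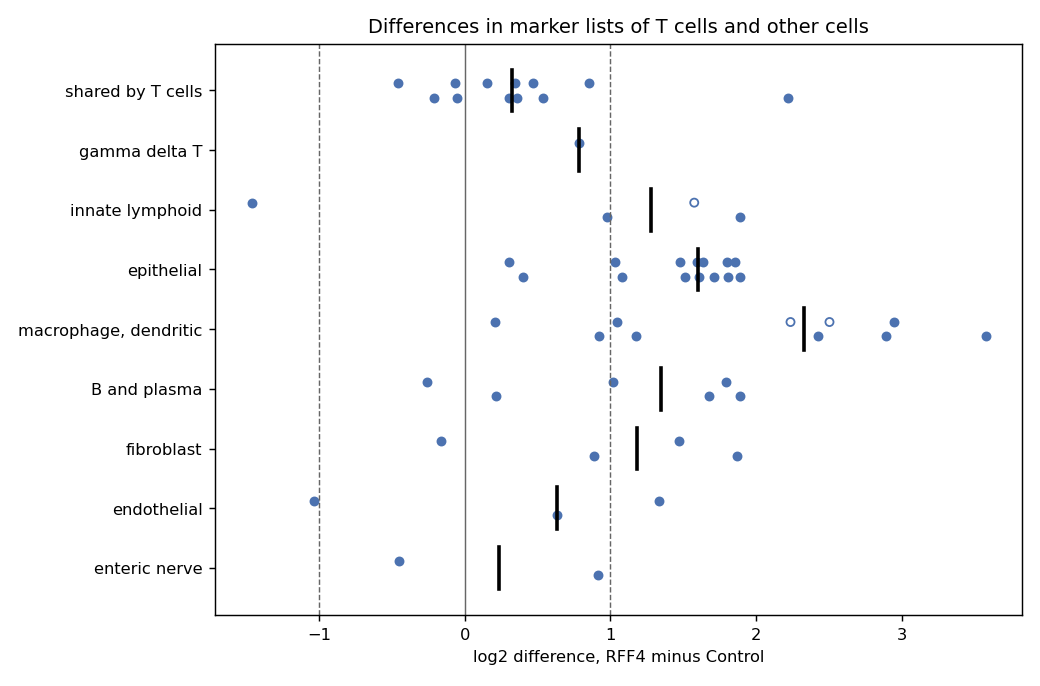
Log2 difference (RFF4 minus Control) of marker genes of T cells and of other cells that a preparation of intestinal lymphocytes could hold, with open circles for bounds, black bars at medians and dashed lines at 2-fold. With 75th percentile scaling all 14 epithelial markers lay above 0, with a median of 1.60, and T cell genes centered at 0.32, which turned to -0.80 under spike-in scaling.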

How the data were processed

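The authors deposited the output of Agilent Feature Extraction 10.7.1.1 for 2 arrays of 1 color, and per the file headers the intensity values are linear, background-subtracted and not normalized between arrays. The deposited table of normalized values, which the study's methods attribute to GeneSpring, holds log2 values centered on each probe, and its differences equal the scanner differences plus a constant of 1.16 for 55679 probes. Labels give 150 ng of RNA per array.

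From the intensities, log2 values minus each array's 75th percentile over gene spots (8.99 for Control, 7.82 for RFF4) were taken, without control and outlier spots, and spots of a probe were averaged. Of 55679 probes, 27509 were matched by accession to a symbol of assembly GRCm38.p6. A probe was well above background where at least 50% of its spots were so marked. Each gene was read from its probe with the highest mean log2 signal over both arrays. A gene below background on 1 array was given a bound, for which its level there was taken as the floor of that array, or as its own signal where that was higher (558 genes), with no value where the bound came under 1-fold (711) or both arrays were below (6663). The floors, each the lowest signal of any probe well above background, were -5.51 on the Control array and -4.29 on the array labelled RFF4. The median signal over background was 9.47 on the Control array and 5.78 on the other. Spot SDs of probes on several spots were 0.12 and 0.11. Levels of different genes' probes were set side by side only in the summed signals of marker lists and the groups of similar signal.

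The genes and the gene lists were chosen with earlier results of these data known. Named were the 9 genes with all probes, list genes past 2-fold or defining a list, Rbpj, Heyl and Dtx1, Cd8a, Cd3e and Ptprc, and the 5 genes nearest to Thy1. Cd2, Cd5, Cd6, Itgal and other genes outside this rule were named after their values were seen. The lists of molecules low on natural IELs, of GPI-anchored genes and of IEL precursor genes were added after the first results. The 9 alternatives were median scaling, quantile normalization, cyclic loess, spike-in controls set equal, normexp with an offset of 50, the deposited table, the mean of all probes, no bounds, and outlier spots kept. Values of a few list genes are not reported here. Steps were tested on simulated data. Software was numpy 2.4.6, pandas 2.3.3 and matplotlib 3.10.9 under Python 3.11.15, and limma 3.58.1 under R 4.3.3.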

Additional observations from a re-analysis of the deposited data

How the results depend on the processing

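No paired analysis was possible because each group has 1 array, and no replicate could be left out. Differences that changed by under 0.16, the technical SD, and counts within 1.5 times of the first were taken as unmoved. The deposited table and outlier spots kept moved 0 of 24 values each, and leaving genes at a bound out of the lists moved 0 of 11. Gene by gene, the median change of a difference was -0.17 with median scaling, -1.12 with the spike-in controls set equal and -0.12 with normexp, and the median difference over all genes was -0.18, -1.10 and -0.0095, in place of -0.015.

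With median scaling, Thy1 differed by 3.62, Ccr7 by 1.22, S1pr1 by 0.80, Klf2 by 1.08, Tcf7 by 0.66, Lef1 by 0.53, Foxp3 by 1.03, Cd4 by -0.040 and Satb1 by -0.024. The list medians were -0.011 for other naive T cell genes, 0.042 for TCF/LEF partners, -0.19 for Kruppel-like factors, -0.011 for the S1P pathway, 0.11 for binding partners, -0.17 for helper and regulatory genes, -0.31 for residency and 0.47 for thymocyte genes, with 1087 genes more than 2-fold lower in place of 683. With the spike-in controls set equal, Thy1 differed by 2.67, Ccr7 by 0.27, Klf2 by 0.13, Foxp3 by 0.079, S1pr1 by -0.15, Tcf7 by -0.29, Lef1 by -0.42, Satb1 by -0.97 and Cd4 by -0.99, and 1 of the 9 was more than 2-fold higher. The list medians in the same order were -0.96, -0.91, -1.14, -0.96, -0.84, -1.12, -1.26 and -0.48, with 198 genes more than 2-fold higher and 8091 lower. Normexp gave Thy1 3.55, Ccr7 1.17, Klf2 1.02, Tcf7 0.66, Foxp3 0.90 and Cd4 -0.052, and medians of 0.49 for other naive T cell genes, -0.19 for Kruppel-like factors, -0.051 for the S1P pathway, 0.074 for binding partners and -0.34 for residency genes. Quantile normalization gave Thy1 3.58, Foxp3 1.01, the S1P pathway -0.23 and binding partners 0.10. Cyclic loess gave Foxp3 1.02 and the S1P pathway -0.17. The mean of all probes gave Cd4 -0.59, the S1P pathway -0.21 and thymocyte genes 0.88. Without bounds or filter, Kruppel-like factors had a median of 0.17, helper and regulatory genes had 0.34, and past 2-fold 6272 named genes were higher. At 4-fold, 1 of the 9 genes was higher, in place of 4 at 2-fold.

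Of all genes past 2-fold, 70.9% were higher with 75th percentile scaling, 54.8% with median scaling, 2.39% with the spike-in controls and 86.5% without bounds. The cause of these changes was not tested. Signal over background limits Foxp3, S1pr1 and Ccr7 most.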

Other observations

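Other GPI-anchored surface genes of lymphocytes, a list added after the first results, spread over both directions, with 9 of 14 higher, 5 lower and a median of 0.35. Ly6a, which encodes Sca-1, read -3.07 on the Control array and 0.27 on the array labelled RFF4, a difference of 3.34. Ly6c1 read -1.01 and 2.09, a difference of 3.11, with a second probe at 2.46, and reads uncertain because Ly6c2 is a near-identical copy. Ly6d differed by 1.99, Cd24a by 1.47 and Cd52 by 1.03. Art2b, a GPI-anchored ADP-ribosyltransferase of T cells, differed by -2.36, and the complement inhibitor gene Cd59a was at least 4.06-fold lower. With normexp Cd59a differed by -0.21, so that call was lost, Art2b by -1.72 and Ly6a by 2.49, and Cd52 lay between 0.46 and 0.86 with normexp, quantile normalization, cyclic loess and median scaling. Having a GPI anchor, as Thy1 has, was thus shared by genes that were higher and genes that were lower.

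Genes of the thymic IEL precursor and of effector stages, also listed after the first results, gave 9 differences from 10 genes, 8 higher and 1 lower, with a median of 0.20 (-0.034 with normexp). Pdcd1, which encodes PD-1, read -0.95 and 1.57, a difference of 2.52, and Cxcr3, a chemokine receptor of effector T cells, read 3.55 and 4.59, a difference of 1.04 that lay between 0.84 and 0.99 in those same settings. With the spike-in controls set equal, Ly6a differed by 2.22, Ly6c1 by 1.98, Pdcd1 by 1.40 and Cxcr3 by -0.09.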
